A study of Mus musculus with 6 samples.

Results

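A set of 42 genes tied to the immediate early and activation response of B cells was followed in mouse leukaemia cells. Many of them are switched on within minutes of a signal through the antigen receptor, a Toll-like receptor or stress. Others, such as Irf4 and Traf1, come up more slowly, and Klf2 is known to fall when lymphocytes are activated. They were taken by gene symbol from a table of 54232 genes, and all 42 were found. The rule names genes and uses no measured value, but the set was proposed with earlier results of these data known. After a filter on low counts, 37 of the 42 could be tested for a difference between treatment groups. The set holds transcription factors of the AP-1, EGR, KLF and NR4A families, the genes that shut the response off again, NF-kB subunits with their inhibitors, and the surface markers CD69 and CD83.

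The cells were chronic lymphocytic leukaemia (CLL) cells sorted from spleen. Donor cells came from Eµ-TCL1 mice with end-stage disease, in which the TCL1 oncogene is driven in B cells by an immunoglobulin heavy chain enhancer, and were injected into the peritoneum of wild-type C57BL/6J recipients. From day 5 recipients received, by mouth, either PF-670462 at 50 mg/kg (CK1i, 3 libraries) or the 10% kolliphor in PBS that served as vehicle (CTRL, 3 libraries), with 5 days of dosing and 2 days of rest for 8 weeks in total. PF-670462 inhibits casein kinase 1 delta and epsilon. Both groups were thus wild-type hosts of transplanted leukaemia that kept their own immune cells, and the labels do not give the number of donor animals or the sort gate. The labels do not tie each library to a mouse of its own, so p-values measure only how these samples vary, which may be technical.

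Immediate early genes need no new protein to be transcribed, because the factors that switch them on (SRF with its ETS partners, CREB and NF-kB) are already in the cell. Their messenger RNAs decay within minutes to hours, so their level follows recent signalling closely. FOS and JUN proteins pair to form AP-1, EGR and NR4A proteins report antigen receptor strength in lymphocytes, and ZFP36 proteins, DUSP phosphatases, A20 and the IkB proteins close the response. The same genes are also known to come on while tissue is being cut, dissociated and sorted, so a level measured in sorted cells can include a response to handling.

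Levels are given in CPM, counts scaled to a common library size by TMM, and triplets of values follow the order of replicates 1, 2 and 3. The 6 libraries held 2472064 to 3105137 counts, and 1 count was worth 0.322 to 0.405 CPM before that scaling. The share of mitochondrial counts was 3.31%, 5.31% and 4.79% for CK1i and 5.01%, 3.64% and 4.697% for CTRL. All 11 reported markers of B cells and CLL cells, among them Cd79b and Cd5, were tested. Their summed level was 17659 to 22414 CPM in CK1i and 20569 to 23190.3 CPM in CTRL. Most of that sum was Ighm, at 10493 to 14983 CPM in CK1i and 12492 to 16194 CPM in CTRL. Plasma cell genes summed to 917 to 1969 CPM in CK1i and 1528 to 2394 CPM in CTRL, with all 6 of them lowest in CK1i replicate 2. Among myeloid genes, Lyz2 had 16, Csf1r 6, C1qa 2 and Cd14 0 counts over the 6 libraries together, and the list of 12 monocyte and macrophage genes, most of it Cd68 and Ccr2, summed to 57.1 to 67.5 CPM in CK1i and 49.4 to 66.03 CPM in CTRL. The 12 T-cell genes, most of it Tcf7 and Trac, summed to 16.6 to 45.3 CPM in CK1i and 18.4 to 22.03 CPM in CTRL. Of the 8 neutrophil genes, Ly6g, Camp, Elane and Mpo had 0 counts, and the sum was 4.28 CPM in CK1i replicate 1 and at most 0.401 CPM in the other 5 libraries. Dendritic cell genes, most of it Bst2, summed to 21.1 to 25.3 CPM in CK1i and 18.8 to 40.4 CPM in CTRL. Stromal and endothelial genes, most of it Pecam1, summed to 163 to 177 CPM in CK1i and 176 to 191 CPM in CTRL. Erythroid, platelet and NK cell genes each summed to at most 5.68 CPM in any library.

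None of the 37 testable genes passed the threshold between CK1i and CTRL, and most of them differed far more between libraries of 1 group than between the groups. Of the 37 tested genes, 0 had an adjusted p under 0.05 in edgeR's quasi-likelihood test, where 0% of all 10067 tested genes did. At an unadjusted p under 0.05 the counts were 0 of 37 and 4.70% of all tested genes. Adjusted p lay between 0.9995 and 0.9996, so it is not repeated for single genes below. The median log2 fold change (CK1i against CTRL) was -0.083, with 12 genes higher and 25 lower in CK1i, beside a median of -0.0055 and 48.8% higher over all tested genes.

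The spread within the groups was wide. The pooled within-group SD of log2 CPM had a median of 0.61 for the 37 genes and 0.23 for all tested genes. It came from both groups, with a median of 0.70 in CK1i and 0.43 in CTRL, beside 0.19 and 0.23 for all tested genes. In linear terms, the highest CK1i library stood above the lowest by a median factor of 2.51, against 1.298 for tested genes with no library at 0. The same factor in CTRL was 1.87, against 1.36. The group difference took a median of 4.53% of a gene's sum of squares, less than the 11.9% of all tested genes. The log2 fold change was larger than the within-group SD for 4 of 37 genes, Batf, Btg2, Nfkbie and Socs3, and for 28.7% of all tested genes. Absolute log2 fold changes were of a usual size, with a median of 0.15 beside 0.14, while their median SE was 0.38 beside 0.19.

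A measure that allows for expression level gave the same picture. The biological coefficient of variation (BCV), the part of a gene's relative spread between replicates that counting does not account for, had a median of 0.3898 for the 37 genes and 0.116 for all tested genes. It was over 1.5 times the trend for genes of like abundance in 28 of 37 genes (75.7%) and in 12.7% of all tested genes. The 9 others were Fosl2, Batf, Ier5, Zfp36l1, Btg2, Socs3, Nfkb1, Nfkbie and Bcl3. Of the 100 tested genes with the widest within-group SD, which are 0.993% of all, 8 belonged to the set: Atf3, Maff, Klf6, Klf4, Egr1, Cd69, Nr4a1 and Tnfaip3. Atf3 ranked 5 and Maff 8 among the 10067.

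**Figure D1:**
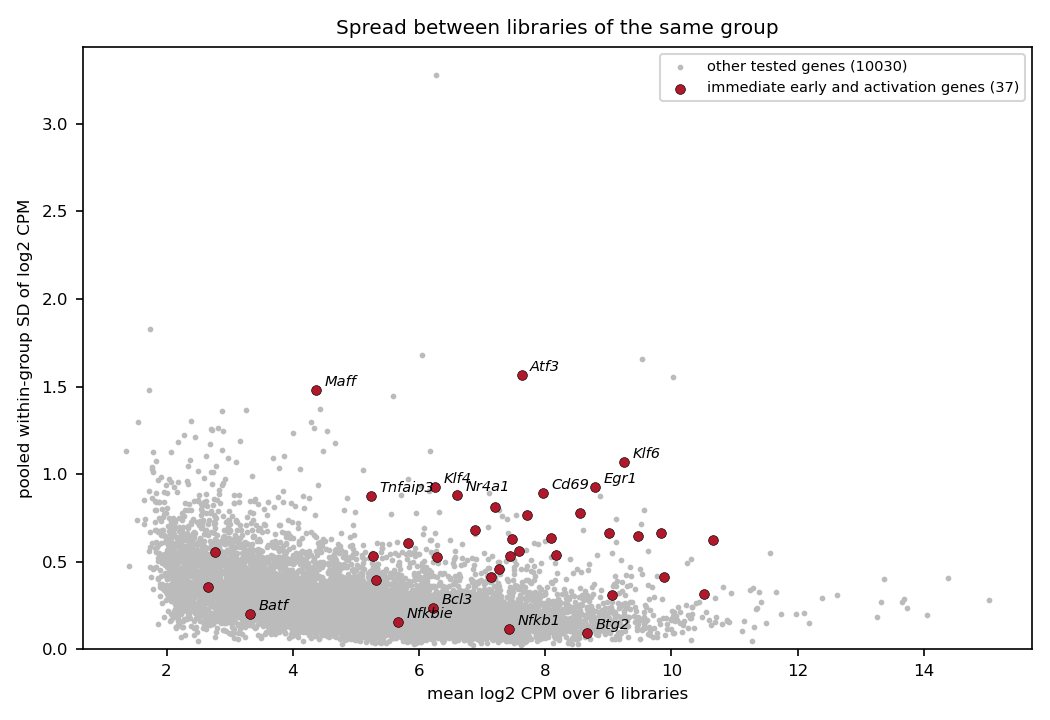
Pooled within-group SD of log2 CPM against mean log2 CPM for every tested gene (grey points) and for the 37 tested immediate early and activation genes (red points). The red points lie mostly above the grey mass, with a median of 0.61 beside 0.23, and Atf3 and Maff lie highest among them.

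The libraries took a common order across the genes. CK1i replicate 1 was the highest of the 6 libraries for 27 of 37 genes (14.7% of all tested genes), and CK1i replicate 2 was the lowest for 25 of 37 (14.5% of all). CK1i replicate 1 and CTRL replicate 1 were together the 2 highest libraries for 24 of 37 genes (7.45% of all). The level in CK1i replicate 1 was 2.49 times that in CK1i replicate 2 by the median, with a range of 0.934 for Batf to 18.6 for Maff, while the median over tested genes with no library at 0 was 0.997. As a mean over the 37 genes, log2 CPM relative to the 6-library mean was 0.67, -0.60 and -0.34 for CK1i and 0.42, -0.29 and 0.14 for CTRL. Each group thus held a high and a low library, and the 2 groups overlapped. Genes that move together are not independent of each other, so these counts describe the libraries and not 37 separate observations. In RNA from many cells, fewer responding cells and less RNA per cell cannot be told apart.

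**Figure D2:**
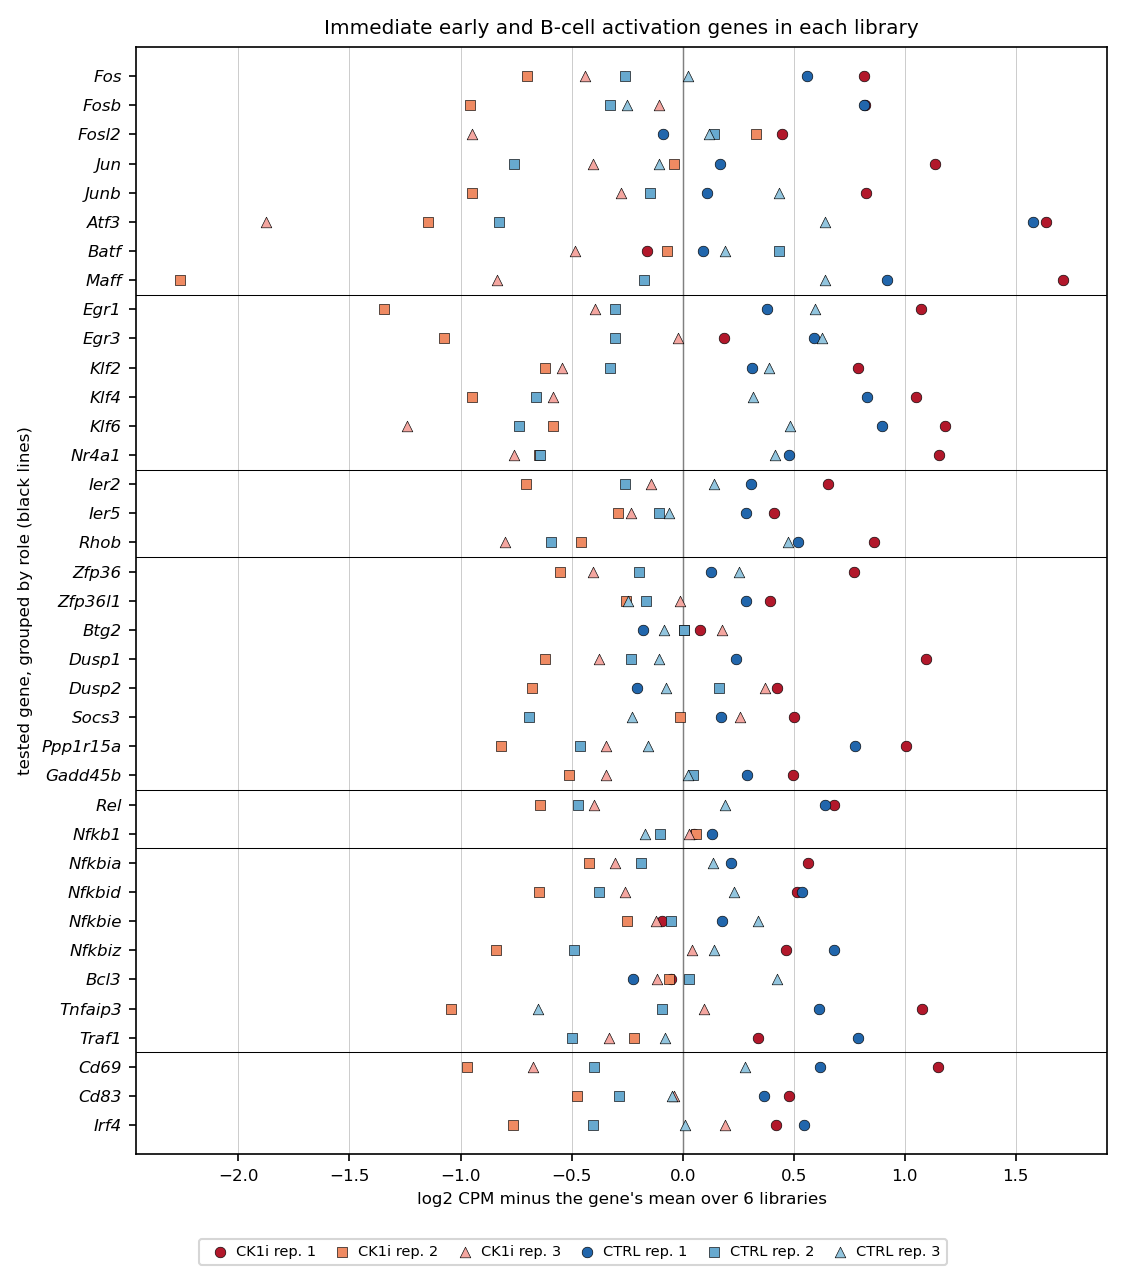
Log2 CPM of each tested immediate early and activation gene in each library, relative to the gene's mean over the 6 libraries, on the horizontal axis, with genes in rows grouped by role and 1 symbol per library (red shades CK1i, blue shades CTRL). The dark red circle, CK1i replicate 1, is rightmost for 27 genes and the orange square, CK1i replicate 2, is leftmost for 25.

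Start regions are shown for 4 of the 8 genes of widest within-group spread, since these genes move together and short elements near the start are how the response is known to be read. Windows run from 250 bases before to 50 bases after a transcription start, from RefSeq on GRCm38.p6, and 35 of the 42 genes had one. Capitals mark matches on either strand to 6 motifs: the TATA box TATAAA, the cAMP response element TGACGTCA, the AP-1 element TGANTCA, the CArG box of SRF, the NF-kB consensus and the EGR element GCGTGGGCG. Shown are Atf3, the gene of widest spread, and those of the 8 whose windows hold a match, a choice made after the matches were seen. Of several windows of a gene, the one with the most kinds of motif is printed. Klf6 and Klf4 have windows with none of the 6 motifs, no match was found for Cd69, and Egr1 is not used here. Positions count from the start, with -1 the base before it. The Atf3 window (chr1:191183284-191183583, minus strand) holds none of the 6. That of Maff (chr15:79347270-79347569, plus strand, 1 of its 3 windows) holds the EGR element at -88 to -80 and the cAMP element at -29 to -22, and is the 1 window of the 35 genes with the EGR element. In Nr4a1 (chr15:101266596-101266895, plus strand) an NF-kB match spans the start, from -3 to 7. In Tnfaip3 (chr10:19015361-19015660, minus strand, 1 of its 2 windows) TATAAA lies at -225 to -220, an AP-1 element at -136 to -130, and NF-kB matches at -125 to -116 and, on the other strand, at -12 to -3.
Atf3: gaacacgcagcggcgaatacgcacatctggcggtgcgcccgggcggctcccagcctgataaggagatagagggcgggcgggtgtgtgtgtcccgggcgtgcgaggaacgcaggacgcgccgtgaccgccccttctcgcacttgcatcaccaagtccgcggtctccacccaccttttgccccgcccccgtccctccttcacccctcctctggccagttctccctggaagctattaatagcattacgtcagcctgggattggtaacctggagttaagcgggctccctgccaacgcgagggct
Maff: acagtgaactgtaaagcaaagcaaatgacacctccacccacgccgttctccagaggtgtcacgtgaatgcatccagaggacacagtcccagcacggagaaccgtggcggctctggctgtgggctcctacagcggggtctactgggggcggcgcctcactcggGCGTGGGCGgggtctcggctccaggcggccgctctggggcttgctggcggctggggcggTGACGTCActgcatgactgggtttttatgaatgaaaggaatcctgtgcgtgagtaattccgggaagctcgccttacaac
Nr4a1: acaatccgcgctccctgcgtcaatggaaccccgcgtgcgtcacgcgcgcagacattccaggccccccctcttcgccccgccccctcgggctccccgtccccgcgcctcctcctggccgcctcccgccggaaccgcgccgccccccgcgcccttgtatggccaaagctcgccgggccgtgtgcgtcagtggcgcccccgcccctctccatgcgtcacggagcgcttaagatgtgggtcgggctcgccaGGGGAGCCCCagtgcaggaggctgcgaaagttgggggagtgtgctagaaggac
Tnfaip3: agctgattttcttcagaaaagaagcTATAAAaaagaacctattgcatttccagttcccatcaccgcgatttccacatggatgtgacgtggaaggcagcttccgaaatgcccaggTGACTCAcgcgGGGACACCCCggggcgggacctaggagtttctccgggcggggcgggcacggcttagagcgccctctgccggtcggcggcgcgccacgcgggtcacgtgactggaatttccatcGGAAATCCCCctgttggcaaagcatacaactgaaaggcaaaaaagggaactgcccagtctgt

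The full cAMP response element, where CREB and ATF proteins bind, was present in 5 of the 35 genes with a window and in 1.79% of the 32851 windows in the RefSeq table. It is shown with 10 bases on each side, in capitals, because the 5 carriers include both wide-spread genes and Btg2, the gene with the smallest within-group SD of the 37.
Btg2 (chr1:134079304-134079331, minus strand, element at -166 to -159): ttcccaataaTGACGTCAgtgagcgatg
Dusp1 (chr17:26508598-26508625, minus strand, element at -143 to -136): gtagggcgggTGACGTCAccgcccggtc
Maff (chr15:79347481-79347508, plus strand, element at -29 to -22): gctggggcggTGACGTCActgcatgact
Nfkbid (chr7:30422345-30422372, plus strand, element at -51 to -44): gttagcgccgTGACGTCAgcgcgcggcg
Ppp1r15a (chr7:45526263-45526290, minus strand, element at -12 to -5): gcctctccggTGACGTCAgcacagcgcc

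Of the other motifs, the NF-kB consensus was found in 13 of the 35 genes (8.46% of all windows), among them Nfkbia, Nfkbie, Nfkbid, Rel, Bcl3 and Tnfaip3. TATAAA was found in 9 (13.6%), the AP-1 element in 3, Nfkbie, Tnfaip3 and Zfp36l1 (7.81%), and the CArG box in 2, Egr2 and Zfp36 (1.63%). The EGR element stood in 0.612% of all windows. Genes with several windows had more chances of a match than single windows have, so the shares are not on one footing. A match is a run of letters and was not tested for binding. Sites more than 250 bases before a start were not searched, so a window without a match does not show that the gene lacks the element.

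Among the AP-1, ATF and MAF transcription factors, 8 of 9 genes were tested, 2 were higher and 6 lower in CK1i, and none passed. Fos, whose protein is the classical AP-1 partner of JUN, had CK1i levels of 1255, 438 and 524 CPM and CTRL levels of 1048, 594 and 724 CPM. CK1i replicate 1 and CTRL replicate 1 were the 2 high libraries, and the log2 fold change was -0.094 ± 0.46 (SE). Jun (ENSMUSG00000052684, chromosome 4, 95049034 to 95052222) had CK1i levels of 2019, 894 and 694 CPM and CTRL levels of 1032, 542 and 852 CPM. Its log2 fold change of 0.57 ± 0.47 (SE) rests on CK1i replicate 1, since the other 2 CK1i libraries lay within the CTRL range and the value was -0.029 without that library. Atf3 (ENSMUSG00000026628, chromosome 1, 191170296 to 191218039), a stress-induced factor that can repress, had CK1i levels of 615, 88.7 and 53.3 CPM and CTRL levels of 590.3, 111 and 308 CPM. Its 2 high libraries lay in different groups, and its lowest was CK1i replicate 3.

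Maff (ENSMUSG00000042622, chromosome 15, 79346621 to 79359076), a small MAF protein that pairs with other leucine zipper factors, had CK1i levels of 66.8, 3.59 and 10.8 CPM and CTRL levels of 38.3, 17.6 and 31.4 CPM. The highest and the lowest library were both CK1i, 18.6-fold apart, while the CTRL libraries were 2.183-fold apart. Batf (ENSMUSG00000034266, chromosome 12, 85686669 to 85709087), an AP-1 factor that works with IRF4 in lymphocytes, had CK1i levels of 8.23, 8.81 and 6.42 CPM and CTRL levels of 9.94, 12.8 and 10.7 CPM. Every CK1i library was below every CTRL library, with a log2 fold change of -0.49 ± 0.27 (SE). These levels rest on few counts, 16 to 27 per library in CK1i and 28 to 32 in CTRL. The highest library was CTRL replicate 2, whose mean over the 37 genes was below average. Fosb, another FOS protein, had 192 to 662 CPM in CK1i and 298 to 659.9 CPM in CTRL. Junb, a JUN protein that is a weaker activator than JUN, had 267 to 913 CPM in CK1i and 465 to 696 CPM in CTRL. Fosl2, the FOS-related antigen FRA2, had 2.81 to 8.55 CPM in CK1i and 5.68 to 6.79 CPM in CTRL. Jund, an AP-1 gene that most cells are known to express, was listed at 0 in every library. A count of 0 allows at most 0.176 CPM over the libraries together (3 counts) where only counting error matters. That limit does not hold if reads of the gene were dropped by the annotation or as multi-mapped, which was not tested, so the 0 is not read as absence.

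The EGR, KLF and NR4A transcription factors had 6 of 9 genes tested, 1 higher and 5 lower, none past the threshold and all 6 with a BCV over 1.5 times the trend. Egr1, a zinc finger factor induced through MAP kinase signalling, had CK1i levels of 929, 173 and 335 CPM and CTRL levels of 574, 358 and 668 CPM. Klf6, a zinc finger factor with growth-restraining roles, had CK1i levels of 1373, 405 and 256 CPM and CTRL levels of 1129, 363 and 848 CPM. For both genes the highest library was CK1i replicate 1, and the CTRL libraries lay between the extremes of CK1i. Klf4 restrains proliferation in B cells and had CK1i levels of 157, 38.8 and 50.1 CPM and CTRL levels of 135, 47.5 and 94.1 CPM. Nr4a1, the orphan nuclear receptor NUR77 used as a reporter of antigen receptor signalling, had CK1i levels of 217, 61.7 and 56.9 CPM and CTRL levels of 135, 61.9 and 129.5 CPM. Its CTRL replicate 2 was as low as CK1i replicates 2 and 3, so both groups held high and low libraries, and the log2 fold change was 0.038 ± 0.69 (SE).

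Klf2, which keeps lymphocytes quiescent and controls their trafficking, had CK1i levels of 2783, 1049 and 1104 CPM and CTRL levels of 2005, 1287 and 2111 CPM. CK1i replicates 2 and 3 and CTRL replicate 2 were low. Egr3 (ENSMUSG00000033730, chromosome 14, 70077203 to 70082614), an EGR factor that limits antigen receptor responses, had the largest negative log2 fold change of the set's tested genes, -0.59 ± 0.37 (SE). It had CK1i levels of 63.5, 26.1 and 54.9 CPM and CTRL levels of 84.5, 45.1 and 86.5 CPM. CTRL replicate 2 lay below CK1i replicates 1 and 3, so the groups overlapped. Egr2, which acts with Egr3 in lymphocytes, was also listed at 0 counts in all 6 libraries, with the same limit on what a 0 shows. Nr4a2 and Nr4a3, the relatives of Nr4a1, had 17 and 15 counts over all libraries and were too low to test.

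Of the IER genes and Rhob, 3 of 4 were tested and all 3 were lower in CK1i, none past the threshold. Ier5, an immediate early gene that acts with heat shock factor 1, had CK1i levels of 1936, 1191 and 1240.03 CPM and CTRL levels of 1778, 1354 and 1396 CPM. It was one of the genes whose BCV was not over 1.5 times the trend. Rhob, an inducible small GTPase of endosomal trafficking, had CK1i levels of 381, 152 and 119.9 CPM and CTRL levels of 299.96, 139 and 291 CPM. CTRL replicate 2 stood with CK1i replicates 2 and 3 at the low end. Ier2, a nuclear protein induced by growth factors, had 47.3 to 122 CPM in CK1i and 64.7 to 96.2 CPM in CTRL. Ier3, an NF-kB target linked to survival, had 14 counts in all and was not tested.

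The genes of RNA decay, phosphatases and other feedback had 8 of 8 tested, 6 higher and 2 lower in CK1i, none past the threshold. Zfp36l1, whose protein binds AU-rich elements and sends messenger RNAs to decay, had CK1i levels of 703, 448 and 531 CPM and CTRL levels of 652, 478 and 451 CPM. Zfp36, its relative tristetraprolin, had 196 to 491 CPM in CK1i and 251 to 344 CPM in CTRL. Btg2 (ENSMUSG00000020423, chromosome 1, 134075170 to 134079120), an antiproliferative gene that promotes deadenylation, had CK1i levels of 428, 406 and 458 CPM and CTRL levels of 357, 406 and 383 CPM. Every CK1i library of Btg2 was above every CTRL library, although CK1i replicate 2 at 406.44 CPM and CTRL replicate 2 at 406.38 CPM all but touched, with a log2 fold change of 0.17 ± 0.13 (SE). Socs3 (ENSMUSG00000053113, chromosome 11, 117966079 to 117970047), an inhibitor of cytokine receptor signalling, had CK1i levels of 8.23, 5.55 and 6.82 CPM and CTRL levels of 6.39, 3.19 and 4.67 CPM. Its log2 fold change was 0.51 ± 0.35 (SE) with overlapping groups, on 17 to 25 counts per library in CK1i and 8 to 18 in CTRL.

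The other feedback genes varied within the groups. Dusp1, a phosphatase that inactivates MAP kinases, had 76 to 251 CPM in CK1i and 99.8 to 138 CPM in CTRL, and CK1i replicate 1 alone was above the CTRL range. Dusp2, a nuclear phosphatase of the same family, had 95.9 to 207 CPM in CK1i and 133 to 172 CPM in CTRL. Ppp1r15a, which encodes GADD34 and restores translation after stress, had 83.2 to 296 CPM in CK1i and 107 to 252 CPM in CTRL. Gadd45b, a stress sensor upstream of p38, had 27.4 to 55.9 CPM in CK1i and 40.1 to 48.3 CPM in CTRL. Counts of overlapping genes are uncertain, and the counting's strand setting is unknown. Junb overlaps Prdx2, with 1262 counts on the opposite strand, and Nfkb1 overlaps the gene model Gm43430, with 405 counts on the same strand. Dusp1 overlaps Ergic1, with 2220 counts on the opposite strand, but only where both gene models start, while library preparation used a 3' kit.

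NF-kB is held in the cytoplasm by IkB proteins until a signal destroys them, and its subunits and inhibitors are in part its own targets. Both NF-kB subunits of the set were tested, and they differed in how steady they were. Rel, the subunit c-REL that mature B cells need for proliferation, had CK1i levels of 434, 173 and 205 CPM and CTRL levels of 422, 195 and 309 CPM. Nfkb1, which encodes p105 and p50, had CK1i levels of 178, 179 and 175 CPM and CTRL levels of 188, 159.7 and 153 CPM. The CK1i libraries of Nfkb1 were within 1.02-fold of each other, while those of Rel were 2.51-fold apart. Log2 fold changes were -0.19 ± 0.45 for Rel and 0.087 ± 0.14 for Nfkb1 (SE).

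The inhibitors, atypical IkB proteins and other NF-kB targets had 7 of 7 tested, 1 higher and 6 lower in CK1i, none past the threshold. Nfkbia, the classical inhibitor IkB alpha, had CK1i levels of 1400.4, 708 and 768 CPM and CTRL levels of 1101, 831 and 1041 CPM. Nfkbiz, a nuclear IkB protein that helps switch on secondary response genes, had CK1i levels of 244, 98.2 and 182 CPM and CTRL levels of 284, 126 and 195 CPM. In both, CK1i replicate 1 and CTRL replicate 1 were the 2 high libraries. Tnfaip3, which encodes A20, the ubiquitin-editing brake on NF-kB, had CK1i levels of 78.97, 17.6 and 39.7 CPM and CTRL levels of 57.2, 34.7 and 23.4 CPM. Here CTRL replicate 3 was low beside CTRL replicate 1, and the lowest library was CK1i replicate 2.

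Nfkbie (ENSMUSG00000023947, chromosome 17, 45555703 to 45563169), the inhibitor IkB epsilon, had the smallest p of the set's tested genes in edgeR's test (adjusted p = 0.9995). It had CK1i levels of 47.1, 42.1 and 46.1 CPM and CTRL levels of 56.8, 48.3 and 63.8 CPM. Every CK1i library was below every CTRL library, by little at the nearest pair, CK1i replicate 1 and CTRL replicate 2, and the log2 fold change was -0.32 ± 0.16 (SE). Over the 37 genes, groups without overlap were seen for 1 gene higher in CK1i (5.22% of all tested genes), Btg2, and for 2 genes lower (4.48% of all), Batf and Nfkbie, which is near the background. Nfkbid, a nuclear IkB protein, had 111 to 248.7 CPM in CK1i and 134 to 252 CPM in CTRL. Traf1, an adaptor of TNF receptors induced by NF-kB, had 30.1 to 48.4 CPM in CK1i and 26.7 to 66.4 CPM in CTRL. Bcl3, a nuclear IkB protein that binds p50 and p52, had 68.6 to 71.7 CPM in CK1i and 63.5 to 100.2 CPM in CTRL, with the 3 CK1i libraries within 1.05-fold of each other.

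The activation markers and Irf4 were all tested, 1 higher and 2 lower in CK1i, none past the threshold. Cd69, an early surface marker of lymphocyte activation that holds cells in tissue, had CK1i levels of 553, 127 and 156 CPM and CTRL levels of 383, 189 and 303 CPM. Irf4, a transcription factor whose level grades antigen receptor strength and drives plasma cell fate, had CK1i levels of 256, 112 and 218 CPM and CTRL levels of 279, 144 and 193 CPM. For Cd69 the high library of CK1i was 4.36 times the low one, and for both genes CK1i replicate 2 was lowest. Cd83, a marker that stabilises MHC class II at the surface, had 101 to 196 CPM in CK1i and 115 to 182 CPM in CTRL, and its log2 fold change of 0.0042 ± 0.24 (SE) turned to -0.00045 with upper-quartile scaling.

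The direction of the group difference depended on which library was left out. With all 6 libraries 12 of 37 genes were higher in CK1i. The number was 29 when CK1i replicate 2 was left out, 27 when CK1i replicate 3 was, and 27 when CTRL replicate 1 was. It was 3 when CK1i replicate 1 was left out, 9 without CTRL replicate 2 and 13 without CTRL replicate 3. The median log2 fold change was -0.53 without CK1i replicate 1 and 0.17 without CK1i replicate 2. Without CK1i replicate 1, 34 of 37 genes were lower in CK1i (51.6% of all 10252 genes tested then) and 17 were lower with an unadjusted p under 0.05 (2.46% of all). None of these passed adjustment in edgeR's test, the smallest adjusted p being 0.363. The log2 fold change was then -2.06 for Maff, -2.24 for Atf3, -1.07 for Egr1, -1.05 for Cd69 and -0.72 for Fos. That library was the highest for 27 genes, so leaving it out lowers their CK1i mean by construction.

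The sign held in every alternative fit for 7 genes: Batf, Egr3, Btg2, Socs3, Nfkb1, Nfkbid and Nfkbie. Nfkbie ran from -0.43 without CTRL replicate 2 to -0.22 without CTRL replicate 3. Batf ran from -0.59 to -0.39, and Btg2 from 0.12 to 0.21. Egr3 kept its sign although it varied widely, from -0.85 without CK1i replicate 1 to -0.29 without CK1i replicate 2. Nfkbid kept its sign only barely, at -0.0030 without CK1i replicate 2 and -0.010 without CTRL replicate 1. A sign that holds is no call, and none of the 7 passed the threshold in any fit.

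**Figure D3:**
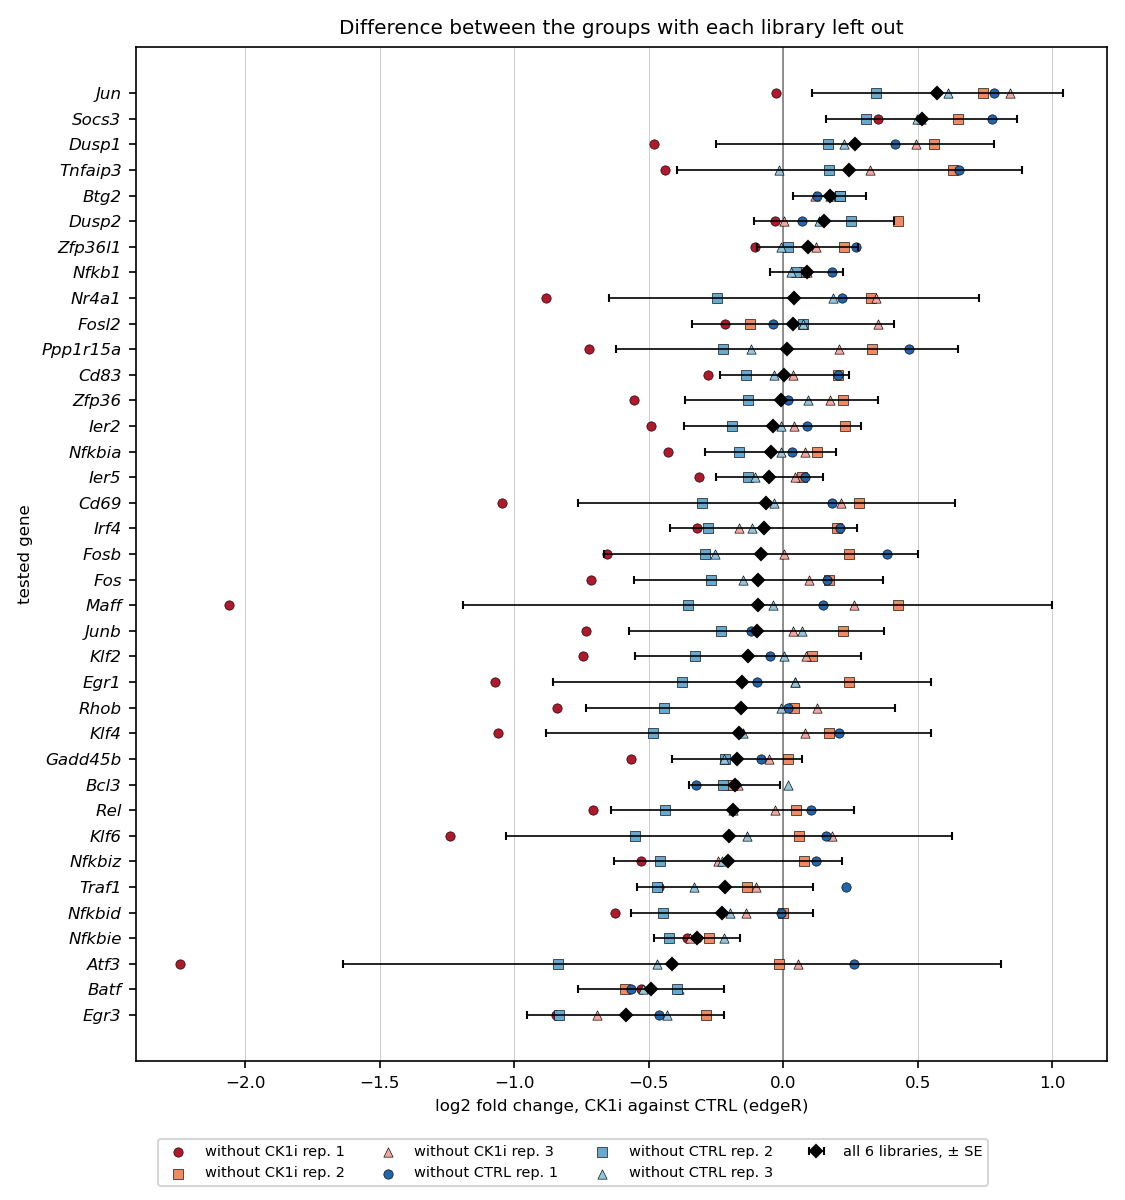
Log2 fold change of each tested gene (CK1i against CTRL, horizontal axis) with all 6 libraries (diamonds, bars ± SE) and with 1 library left out (other symbols). Without CK1i replicate 1 most genes move left, to -2.24 for Atf3 and -2.06 for Maff, while Btg2, Nfkb1, Nfkbie and Batf move little.

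Genes of the same pathway outside the set were followed in 5 lists, and 0 of their genes passed the threshold in edgeR's test. Among other immediate early and delayed early genes 41 of 54 were tested, 18 higher and 23 lower in CK1i, with a median within-group SD of 0.50. CK1i replicate 1 was highest for 23 of the 41 and CK1i replicate 2 lowest for 24, and 28 had a BCV over 1.5 times the trend. Rgs1, a brake on chemokine receptor signalling in B cells named after its values were seen, had CK1i levels of 31.9, 1.96 and 7.62 CPM and CTRL levels of 12.1, 5.19 and 13.02 CPM. Plk2, a polo-like kinase, had a log2 fold change of -0.45 ± 0.18 (SE), and Tob2, an antiproliferative relative of Btg2, -0.29 ± 0.14. At an unadjusted p under 0.05 the list held 1 gene, Plk2.

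Other AP-1, ATF and small MAF genes had 10 of 17 tested, 2 higher and 8 lower, and 3 had a BCV over 1.5 times the trend. CTRL replicate 1 was highest for 7 of the 10 (20.8% of all tested genes) and CK1i replicate 1 for 1. Atf5, a factor of the stress response, had a log2 fold change of -0.80 ± 0.22 (SE; edgeR's adjusted p = 0.763), and Atf7 had -0.28 ± 0.15. Other NF-kB subunits and regulators had 28 of 30 tested, 14 higher and 14 lower, 5 of them with a BCV over 1.5 times the trend. Traf3, a TRAF adaptor that keeps the noncanonical NF-kB kinase low, had CK1i levels of 22.4, 10.1 and 34.9 CPM and CTRL levels of 2.48, 3.19 and 3.34 CPM. Its log2 fold change was 2.87 ± 0.46 (SE), for which edgeR gave an adjusted p of 0.224. The CTRL levels lay below the cutoff of the filter on low counts, which Traf3 passed only through the CK1i libraries where it was high. Its fold change thus rests on CTRL values near the floor. Rnf31, a subunit of the linear ubiquitin ligase, had 0.84 ± 0.46.

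Other B-cell activation genes had 29 of 39 tested, 9 higher and 20 lower, and 7 had a BCV over 1.5 times the trend. Tfrc, the transferrin receptor of growing cells, had a log2 fold change of -0.38 ± 0.15 (SE) and Hspd1, the mitochondrial chaperone HSP60, 0.38 ± 0.16. With an unadjusted p under 0.05 the list held 2 higher genes, Hspd1 and Tnf, and 1 lower, Tfrc. Upstream receptor and MAP kinase genes had 35 of 36 tested, 20 higher and 15 lower, and 1 had a BCV over 1.5 times the trend. Their median within-group SD was 0.18. Mapk8 and Mapk9, the kinases JNK1 and JNK2 that phosphorylate JUN, had -0.29 ± 0.15 and 0.36 ± 0.18 (SE). Of the 11 markers of B cells and CLL cells, 0 had a BCV over 1.5 times the trend.

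**Figure D4:**
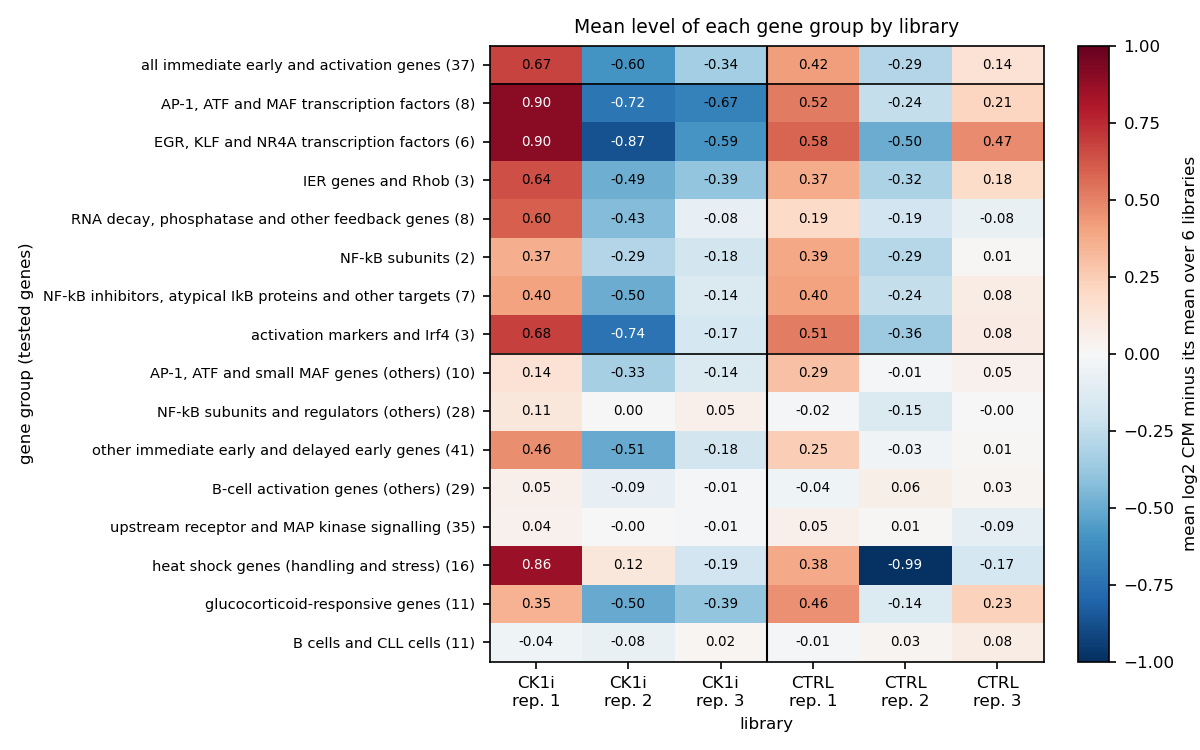
Mean log2 CPM of each gene group in each library, relative to the group's mean over the 6 libraries, with the number of tested genes in brackets. The upper rows show the roles of the 37 tested genes, all high in CK1i replicate 1 and CTRL replicate 1 and low in CK1i replicate 2, and the lower rows show the other lists.

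Lists that can move with handling or with stress hormones gave these values beside the common order of the libraries. Heat shock genes, which come on with protein damage and warming, had 16 of 16 tested and 15 higher in CK1i. Their mean log2 CPM relative to the 6-library mean was 0.86, 0.12 and -0.19 for CK1i and 0.38, -0.99 and -0.17 for CTRL. CK1i replicate 1 was highest for 14 of the 16 and CTRL replicate 2 lowest for 12 (13.98% of all tested genes), and CK1i replicate 2, the low library of the immediate early genes, lay above the mean. CK1i replicate 1 and CTRL replicate 1 had the 2 highest means, and were together the 2 highest libraries for 7 of the 16 genes (7.45% of all tested genes). Hsp90aa1, an inducible HSP90, had a log2 fold change of 0.53 ± 0.19 (SE; edgeR's adjusted p = 0.929).

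Glucocorticoid-responsive genes, which follow stress hormone and time of day, had 11 of 14 tested, 3 higher and 8 lower. Their means were 0.35, -0.50 and -0.39 for CK1i and 0.46, -0.14 and 0.23 for CTRL, so CK1i replicate 1 and CTRL replicate 1 had the 2 highest means here too. Gene by gene, they were together the 2 highest libraries for 4 of the 11. CK1i replicate 1 was highest for 2 of the 11 and CTRL replicate 1 for 5. The metallothionein genes Mt1 and Mt2 had log2 fold changes of -0.84 ± 0.38 and -0.83 ± 0.49 (SE). Summed monocyte and macrophage genes were also highest in CK1i replicate 1 and CTRL replicate 1, at 67.5 and 66.03 CPM. In CTRL replicate 1 that sum rested on Ccr2, at 38.3 CPM, while Cd68 was at its lowest of the 6 libraries there, at 20.9 CPM. No other list of cell type genes had CK1i replicate 1 and CTRL replicate 1 as its 2 highest libraries. T-cell genes were highest in CK1i replicate 3, at 45.3 CPM, and plasma cell genes in CTRL replicate 2, at 2394 CPM. Dendritic cell genes were lowest in CTRL replicate 1, at 18.8 CPM. The share of mitochondrial counts was lowest in CK1i replicate 1 and highest in CK1i replicate 2. The part of handling, stress hormones, other cells and mitochondrial share in the spread was not tested.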

How the data were processed

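Gene expression was measured in sorted splenic CLL cells, 3 CK1i and 3 CTRL libraries with the same batch label. Library preparation used a QuantSeq 3' forward kit with unique molecular identifiers, per the labels' protocols. The authors deposited whole-number counts per gene for 54232 genes, with 0 rows that name no gene. The submitters' processing notes list UMI-tools 1.1.1, Trimmomatic 0.36, STAR 2.7.3a and featureCounts 1.6.3 with GRCm38.p6. Neither the collapsing of identifiers nor the strand setting is stated in these sources, so floors cover counting error only, and overlapping genes are uncertain.

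The fit used edgeR 4.0.16 in R 4.3.3. A filterByExpr step (minimum count 10, minimum total 15) left 10067 genes, which were scaled by TMM and tested with the robust quasi-likelihood F test (two-sided, Benjamini-Hochberg over all tested genes, threshold 0.05). The SE is the log2 fold change divided by the root of F. Log2 CPM used a prior count of 2. The gene-wise BCV was estimated without shrinkage and set against the trend. Alternatives were limma 3.58.1 (voom), DESeq2 1.42.0, other scalings and filters, and each library left out. The procedure was tested on counts simulated with the same BCV of 0.16 for every gene. That is below the median of 0.39 for the 37 genes, so the simulation does not cover their spread. Coordinates are GENCODE M21, and start regions and motifs are from RefSeq windows.

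The genes and lists were chosen with earlier results of these data known, so no p-value was adjusted over the set alone and no set test was run. All 42 genes are accounted for, and 1 marker of B cells is not reported here. Values in every library are given for up to 3 genes with the smallest p in each direction, for the 8 with the widest within-group SD and for the 2 with the highest mean CPM in each role. Of each pathway list up to 2 genes with the smallest p are named, and other genes were picked with their values in view.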

Additional observations from a re-analysis of the deposited data

How the results depend on the processing

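No immediate early or activation gene passed the threshold in any of the alternative fits, in edgeR with other filters and scalings, in DESeq2 (1 with an unadjusted p under 0.05, Egr3), in limma-voom or with any 1 library left out. Over all tested genes the count past the threshold was 0, 3 with no filter beyond 1 count, 8 in DESeq2 (6 higher), and 0 to 1 with 1 library left out, and at an unadjusted p under 0.05 it was 473 in edgeR, 318 in DESeq2 and 481 in limma-voom. With 1 library left out, the number of the 37 genes higher in CK1i ran from 3 to 29, their median log2 fold change from -0.53 to 0.17, their median within-group SD from 0.42 to 0.66, and the number with a BCV over 1.5 times the trend from 22 to 29. The median within-group SD stayed above that of all tested genes (0.21 to 0.23) in each of these fits. With no filter 40 of the 42 genes were fitted. Over the other filters, scalings and the prior count of 0.5, the median log2 fold change ran from -0.091 to -0.078. The median within-group SD ran from 0.60 to 0.62 in these fits. In limma-voom, with all 6 libraries, the median log2 fold change was -0.16, and 8 of the 37 genes were higher in CK1i.

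The sign changed for 30 of 37 genes when 1 library was left out: for 9 without CK1i replicate 1, 19 without CK1i replicate 2, 15 without CK1i replicate 3, 17 without CTRL replicate 1, 3 without CTRL replicate 2 and 9 without CTRL replicate 3. Their log2 fold changes ran from -0.72 to 0.17 for Fos, -0.66 to 0.39 for Fosb, -0.22 to 0.35 for Fosl2, -0.029 to 0.84 for Jun and -0.73 to 0.22 for Junb. Values ran from -2.24 to 0.26 for Atf3, -2.06 to 0.42 for Maff, -1.07 to 0.24 for Egr1, -0.74 to 0.11 for Klf2 and -1.06 to 0.21 for Klf4. The range was -1.24 to 0.18 for Klf6, -0.88 to 0.34 for Nr4a1, -0.49 to 0.23 for Ier2, -0.31 to 0.081 for Ier5 and -0.84 to 0.13 for Rhob. It ran from -0.56 to 0.22 for Zfp36, -0.11 to 0.27 for Zfp36l1, -0.48 to 0.56 for Dusp1, -0.033 to 0.43 for Dusp2 and -0.72 to 0.47 for Ppp1r15a. The limits were -0.57 to 0.016 for Gadd45b, -0.71 to 0.10 for Rel, -0.43 to 0.13 for Nfkbia, -0.53 to 0.12 for Nfkbiz and -0.32 to 0.019 for Bcl3. The last ran from -0.44 to 0.65 for Tnfaip3, -0.47 to 0.23 for Traf1, -1.05 to 0.28 for Cd69, -0.28 to 0.20 for Cd83 and -0.32 to 0.21 for Irf4. In limma-voom the sign turned for Fosl2 (-0.085), Ppp1r15a (-0.11), Cd83 (-0.024) and Nr4a1 (-0.17), and with upper-quartile scaling for Cd83 (-0.00045). Leaving out a library leaves fewer samples, and beyond that the cause was not tested. No paired analysis was possible because replicate numbers here only name libraries in the order of deposit. With 3 libraries a group, a median SE of 0.38 on the log2 scale limits what could be called for these genes.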
